A study of Mus musculus with 32 samples.

Results

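The genes described here serve vesicle traffic and endocytosis. They were taken from the titles of the array's cDNA probes. A title counted if it held SNARE, syntaxin, synaptotagmin, synaptobrevin, vesicle, clathrin, adaptor protein complex, adaptor-related, coatomer, Golgi, intersectin, dynamin, flotillin, caveolin or sorting nexin. Titles that start with EST or RAB, or that hold kinase or receptor, were left out. Of 5163 cDNA probes, 21 titles held a keyword, 4 of these started with EST, and 17 probes of 17 different genes remained. By role they comprise adaptor complex subunits (Ap1m1, Ap1b1, Ap2a2, Ap3m1), SNAREs and their partners (Vamp2, Stx7, Vti1b, Bet1l, Ykt6, Stxbp3), a synaptotagmin (Syt4), COPI coat subunits (Copa, Copz1, Copz2), the endocytic scaffold intersectin (Itsn1), and caveolin 2 and flotillin 1 (Cav2, Flot1).

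RNA came from prefrontal cortex of adult mice of the withdrawal seizure-prone (WSP) and seizure-resistant (WSR) lines, which were bred from the heterogeneous stock HS/Ibg for severe or mild ethanol withdrawal. Females and males of each line spent 72 h in ethanol vapor (EtOH) or in air chambers (Air), and RNA was prepared from tissue collected at 0 h of withdrawal. EtOH mice were also injected with ethanol, 1.5 g/kg in WSP-1, WSR-1 and WSR-2 and a higher dose in WSP-2, so the dose differed within WSP. All mice, the Air controls included, received 68.1 mg/kg pyrazole, which blocks alcohol dehydrogenase and so slows the clearance of ethanol. Each direction of breeding had 2 selection replicates, so a line difference includes what became fixed by chance in breeding. Each array was hybridised with 33P-labelled cDNA from RNA pooled over 2 animals. The 8 groups of F/M code, line and treatment held 4 arrays each, except female WSR EtOH with 3, since the submitters marked 1 of its arrays as excluded. Arrays are named by selection replicate and pool, so that 1-2 is pool 2 of selection replicate 1.

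Vesicles bud from one membrane when coat proteins gather cargo through adaptors. They fuse with the next membrane when SNARE proteins on the vesicle pair with SNAREs on the target. At nerve terminals the same machinery releases transmitter and then takes vesicle membrane back by clathrin-mediated endocytosis. COPI coats work further back in the cell, between the Golgi cisternae and from the Golgi to the endoplasmic reticulum.

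Promoters are shown for Itsn1, Copa and Bet1l, because these genes were lower on female than on male arrays over both lines (values and their limits below). RefSeq's table for build GRCm38.p6 had an entry for 13 of the 17 members, but none for Flot1, which was also lower over both lines. Each line gives the 250 bases before the annotated start, read 5′ to 3′ on the gene's strand, at chr16:91729121-91729370 (plus strand) for Itsn1, chr1:172082279-172082528 (plus strand) for Copa and chr7:140856384-140856633 (minus strand) for Bet1l. Capitals mark matches on either strand to GGGCGG, the GC box bound by Sp1-type factors, and to CCAAT.
Itsn1: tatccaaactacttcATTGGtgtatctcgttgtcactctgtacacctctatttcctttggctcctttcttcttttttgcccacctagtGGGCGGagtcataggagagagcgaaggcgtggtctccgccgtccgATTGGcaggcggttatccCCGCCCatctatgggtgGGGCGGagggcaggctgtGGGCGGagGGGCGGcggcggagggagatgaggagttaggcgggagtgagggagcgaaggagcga
Copa: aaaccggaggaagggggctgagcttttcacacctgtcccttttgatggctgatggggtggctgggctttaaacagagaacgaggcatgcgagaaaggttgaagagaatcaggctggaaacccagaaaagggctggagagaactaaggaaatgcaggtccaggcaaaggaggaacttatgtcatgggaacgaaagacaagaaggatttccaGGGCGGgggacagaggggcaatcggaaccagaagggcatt
Bet1l: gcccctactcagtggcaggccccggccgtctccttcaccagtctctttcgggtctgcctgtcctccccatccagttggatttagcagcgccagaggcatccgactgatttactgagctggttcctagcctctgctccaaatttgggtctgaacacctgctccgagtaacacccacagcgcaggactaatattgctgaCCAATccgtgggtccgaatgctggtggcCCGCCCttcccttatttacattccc
The Itsn1 window held 5 matches to GGGCGG and 2 to CCAAT, the Bet1l window 1 of each, and the Copa window 1 match to GGGCGG and none to CCAAT. Over all 27025 promoter windows of this length, GGGCGG occurred in 32.9% and CCAAT in 34.5%. TATAAA, TGACGTCA and CACGTG, searched on both strands, were in none of the 3 windows and in 13%, 1.62% and 6.05% of all windows. TGACGTCA and CACGTG share the letters ACGT, and ATTGG, the reverse complement of CCAAT, can run into GGGCGG. GC content was 59.2% with 17 CpG for Itsn1, 52.4% with 6 CpG for Copa and 57.2% with 10 CpG for Bet1l, beside medians of 52.0% and 6 CpG over all windows.

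The arrays differed greatly in background, and not evenly over the groups. The files give 1 background reading per array, which was 8.25 to 41.1 on the 16 male arrays, 10.3 to 66.8 on the 4 female WSP pool 2 arrays, 88.4 to 283 on the 4 female WSP pool 1 arrays and 430 to 769 on the 7 female WSR arrays. Readings under 75 are called low background below. The share of cDNA probes brighter than that reading was 15.8% to 82.5% in female WSP, 17.3% to 36.2% in female WSR and 40.9% to 71.7% in males. An array's mean correlation with the others of its group was 0.56 to 0.69 in female WSR and 0.85 to 0.88 in males. As to tissue markers, the astrocyte gene Glul was above background on all 31 arrays, but the astrocyte gene Aldoc on 16. The neuronal genes Thy1 and Syn1 were above background on 18 and 12, and the interneuron genes Sst and Slc32a1 on 24 and 14. Of the choroid plexus genes, Ttr and Enpp2 were above background on 31 arrays each, but Folr1 on 5. No probe title named a marker of microglia or endothelium. The Y-linked gene Eif2s3y, a check of the F/M code, was above background on 14 of 16 male arrays, but also on 6 of 8 female WSP arrays and on 0 of 7 female WSR arrays, so its probe did not separate the codes in WSP. Copa and Itsn1, which are not Y-linked, were likewise above background on 0 of 7 female WSR arrays. The Eif2s3y count is therefore no check of the code in WSR either.

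Detection varied between members and between kinds of array. A member was counted as above background wherever its deposited signal was greater than the array's reading. Copz2, a COPI zeta subunit, was above background on all 31 arrays, and Flot1, a scaffold of membrane rafts, on 30. Syt4, a synaptotagmin of dense-core vesicles, was above background on 29 arrays and Bet1l, the Golgi SNARE titled GS15, on 26. Copz1 (24 arrays), Vti1b (23) and Copa (20) followed. Vti1b is a SNARE of traffic between Golgi and endosomes, and Copa is the large alpha subunit of the coat. Stx7, a late endosomal syntaxin, was above background on 18 arrays, and the adaptor subunit Ap3m1 on 17. Itsn1, which links clathrin coats to dynamin and actin, was above background on 16 arrays, Ap1m1 of the Golgi adaptor AP-1 on 15, and Vamp2, the synaptic vesicle SNARE also called synaptobrevin 2, on 13. Cav2 was above background on 10 arrays, Stxbp3 on 7, Ap2a2 on 5, Ykt6 on 4 and Ap1b1 on 2. These last 5 fell under the filter on dim probes (mean log2 intensity over all 31 arrays above the 25th percentile) and were not tested, which left 12 members among 3872 probes tested. The highest mean among untested probes was 5.53. The female mean of Itsn1 (5.28, male mean 6.58) and the male mean of Vamp2 (5.49, female mean 6.15) lay under it, so each passed the filter only through the F/M code in which it was higher, and a call between codes is no independent support for them.

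**Figure D1:**
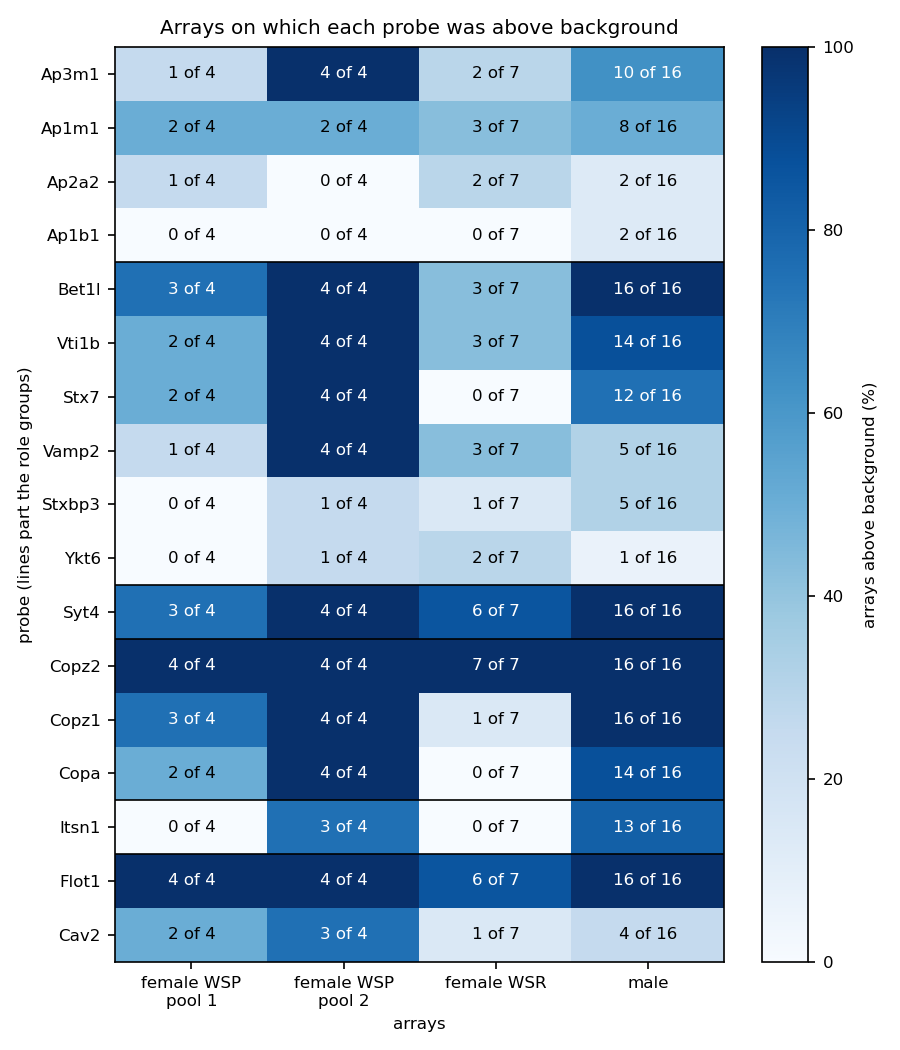
Number of arrays on which each of the 17 probes was above the array's background reading, by kind of array (columns) and role group (rows parted by lines), with the shade giving the percent of arrays. Male arrays and female WSP pool 2 arrays detected Copz1, Bet1l and Copa almost throughout (Copz1 on 16 of 16 male arrays), while female WSR arrays detected Copz1 on 1 of 7 and Copa on 0 of 7.

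On female WSR arrays, Copa, Stx7 and Itsn1 were above background on 0 of 7 and Copz1 on 1 of 7. On male arrays the same probes were above background on 14, 12, 13 and 16 of 16. A probe below background is not thereby unexpressed. In bulk tissue, fewer cells of a type and less RNA per cell cannot be told apart in any of the values that follow.

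Values are log2 of the normalised intensity and compare 1 probe across arrays. On the 16 male arrays the well detected members varied little. Copz2 ran from 8.45 to 8.84 with a median of 8.68, Flot1 from 8.40 to 8.77 (8.55), Bet1l from 7.74 to 8.37 (8.09) and Syt4 from 7.33 to 8.07 (7.85). Over the 7 female WSR arrays Copz2 ran from 7.33 to 9.16, Flot1 from 6.97 to 8.95, Bet1l from 6.09 to 8.15 and Syt4 from 6.37 to 8.90. Dimmer members spread more widely on male arrays too, from 5.0 to 7.14 for Ap3m1, 4.72 to 6.56 for Ap1m1, 4.50 to 6.23 for Vamp2 and 5.16 to 7.87 for Itsn1.

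The 5 untested members were above background on few arrays. Stxbp3, a Munc18 partner of syntaxins, ran from 4.19 to 6.29 on female and 4.52 to 6.08 on male arrays, and was above background on 2 of 15 and 5 of 16. Ykt6, a SNARE of several Golgi steps, ran from 4.38 to 7.21 on female and 4.62 to 6.23 on male arrays (above background on 3 and 1). Of the adaptor subunits, Ap2a2 of the endocytic adaptor AP-2 ran from 4.14 to 6.71 on female and 4.06 to 6.16 on male arrays (3 and 2), and Ap1b1 of AP-1 from 4.23 to 5.84 on female and 4.42 to 6.1 on male arrays (0 and 2). Cav2, a partner of caveolin 1 in caveolae, ran from 3.89 to 7.99 on female and 4.16 to 6.78 on male arrays (6 and 4). Each of the 5 was below background on most arrays.

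Among the tested members, Syt4, Ap1m1, Ap3m1 and Vti1b passed in none of the 14 contrasts. The lowest adjusted p in limma over these contrasts was 0.148 for Syt4, 0.334 for Ap1m1, 0.488 for Ap3m1 and 0.309 for Vti1b, each in a contrast between F/M codes. Both tested adaptor subunits thus showed no call for treatment, line or F/M code. Of the SNAREs, Bet1l, Stx7 and Vamp2 had calls between F/M codes only, and all 3 COPI subunits had at least 1 call there.

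**Figure D2:**
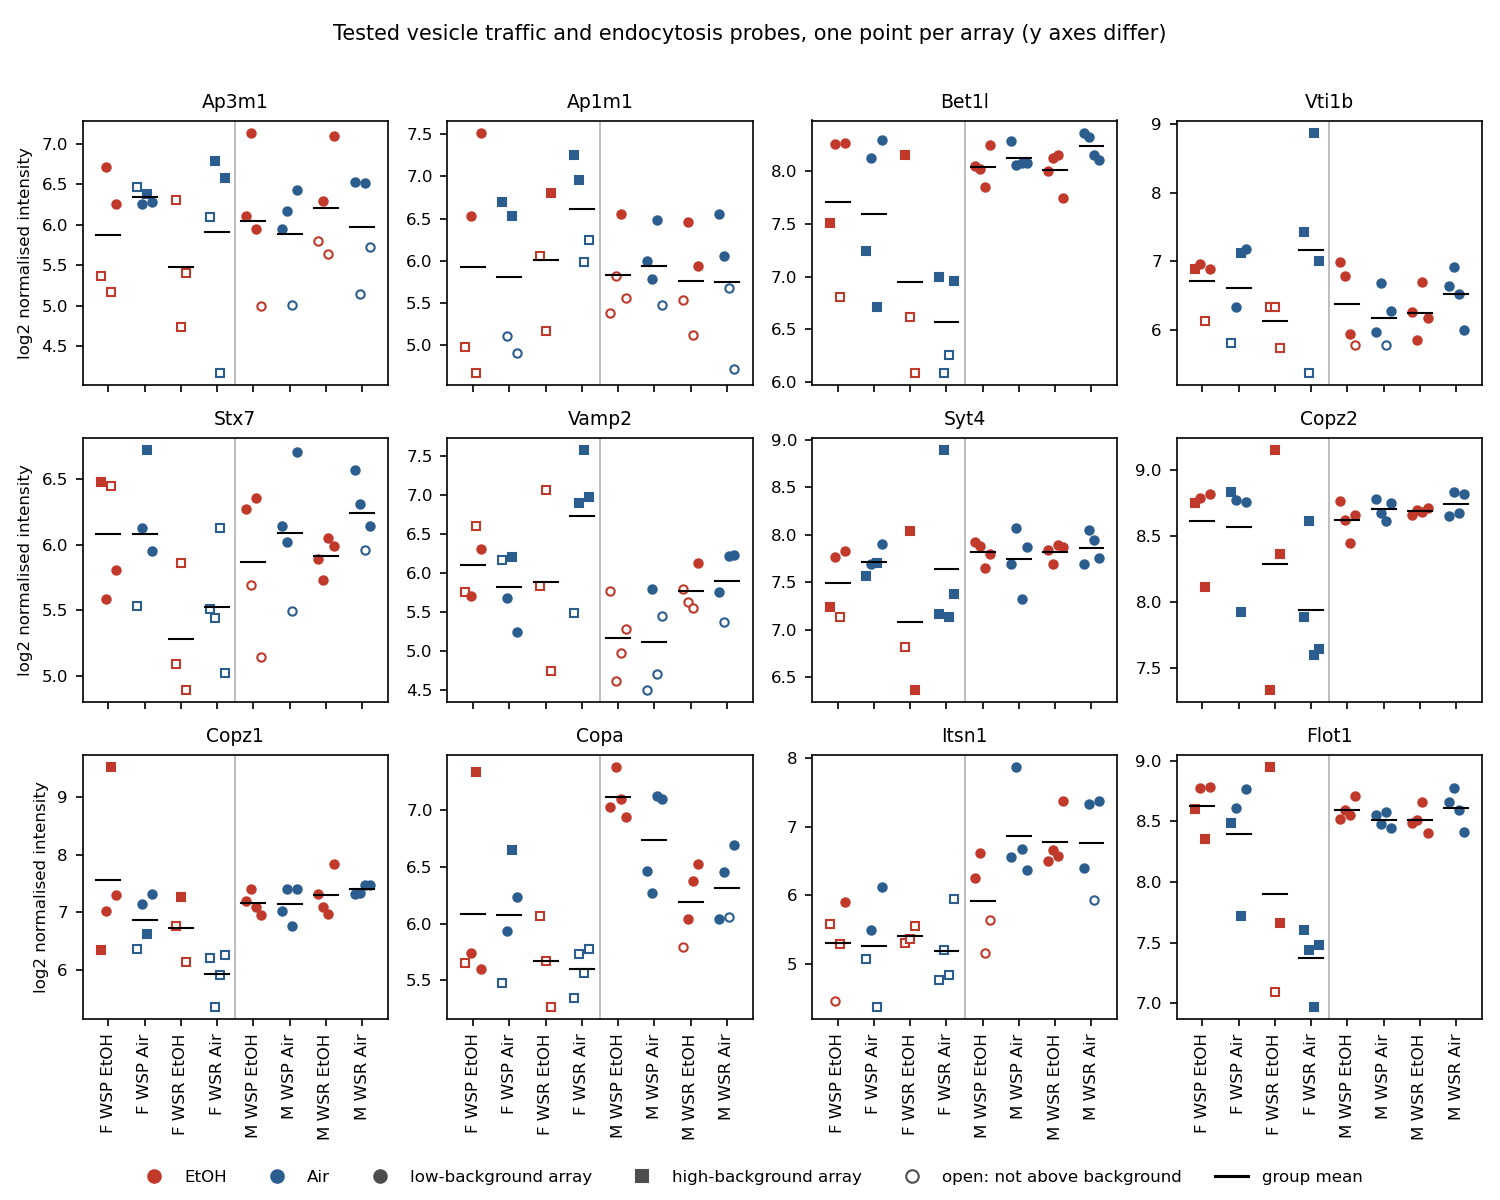
Log2 normalised intensity (y axes, which differ) of the 12 tested members on each of 31 arrays, by group (x axes), with EtOH in red, Air in blue, squares for high-background arrays, open symbols for arrays where the probe was not above background and bars for group means. Male values of Copz2, Flot1, Syt4 and Bet1l lie close together (Copz2 between 8.45 and 8.84), and Copa lies higher in male WSP EtOH than in male WSR EtOH.

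The first question was whether 72 h of EtOH changed these genes at 0 h of withdrawal. No member passed the threshold, an adjusted p under 0.05 in limma with Benjamini-Hochberg adjustment over all 3872 probes, in any of the 4 groups of line and F/M code. Of all probes tested, 0% passed in female WSP, male WSP and male WSR, and 0.155% (6 probes) in female WSR. At an unadjusted p under 0.05, members numbered 0 of 12 in female WSP, 1 in female WSR, 1 in male WSP and 0 in male WSR, where 3.82%, 13.8%, 0.93% and 0.878% of all probes did so. The median difference of the 12 members was 0.08, -0.09, 0.03 and -0.09 in that order, beside -0.03, 0.04, 0.01 and -0.02 over all probes.

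Itsn1 gave the lowest p of the male groups. In male WSP it had 6.25, 6.62, 5.16 and 5.64 on EtOH arrays, against 6.56, 7.87, 6.67 and 6.37 on Air arrays. All 4 EtOH values lay below the Air mean of 6.87, though the ranges overlapped. The difference was -0.95 ± 0.42 (SE; 95% interval -1.81 to -0.09), with an adjusted p of 1 in limma. In male WSR, Itsn1 had 6.49, 6.66, 6.58 and 7.37 on EtOH arrays and 6.40, 7.33, 5.93 and 7.38 on Air arrays, and the ranges overlapped throughout.

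In female WSR the lowest p belonged to Vti1b, with 6.32, 6.33 and 5.72 on EtOH arrays and 7.43, 5.37, 8.88 and 7.0 on Air arrays. It was above background on 0 of 3 EtOH arrays. The difference was -1.04 ± 0.50 on measured values, or 1.32-fold between the Air mean and a detection floor. That fold takes no account of the spread between arrays, and the difference did not pass (adjusted p = 0.356 in limma). The Air arrays of Vti1b alone spanned 5.37 to 8.88, which is wider than the difference. The other members named here for female WSR were Vamp2 (-0.85 ± 0.46), Copz1 (0.79 ± 0.45) and Flot1 (0.53 ± 0.31), each short of the threshold (limma, adjusted p = 0.42, 0.441 and 0.448). Vamp2 was above background on 0 of 3 EtOH arrays and has no fold, its bound being under 1. Copz1 was above background on 0 of 4 Air arrays, and its EtOH mean was 1.08-fold above the detection floor. Since it did not pass, no minimum change follows from that fold.

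In female WSP the members with the lowest p were Copz1 (0.69 ± 0.42), Ap3m1 (-0.47 ± 0.51), Flot1 (0.23 ± 0.28) and Syt4 (-0.22 ± 0.33), all with adjusted p = 0.999 in limma. Copz1 had 6.36, 7.03, 9.53 and 7.30 on EtOH arrays, against 6.36, 7.14, 6.63 and 7.33 on Air arrays. The value of 9.53 came from array 2-1, on which 15.8% of probes were above background, the lowest share of all arrays. On the low-background arrays alone (2 EtOH, 2 Air) the Copz1 difference was -0.07. In male WSP, Copa (0.38 ± 0.33), Stx7 (-0.23 ± 0.33) and Vti1b (0.20 ± 0.46) followed Itsn1. In male WSR the members with the lowest p were Stx7 (-0.33 ± 0.33), Bet1l (-0.23 ± 0.37), Vti1b (-0.27 ± 0.46) and Ap3m1 (0.23 ± 0.51). Both male lists had adjusted p = 1 in limma.

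A fit to the 20 low-background arrays, with their smaller spread, gave narrower intervals for males. The 95% interval of the EtOH difference in male WSP was -0.35 to 0.19 for Copz2, -0.20 to 0.36 for Flot1, -0.39 to 0.23 for Bet1l, -0.27 to 0.42 for Syt4 and -0.40 to 0.43 for Copz1. In male WSR it was -0.33 to 0.21 for Copz2, -0.38 to 0.19 for Flot1, -0.54 to 0.08 for Bet1l, -0.39 to 0.31 for Syt4 and -0.51 to 0.33 for Copz1. Each of these 10 intervals holds 0 and none reaches a log2 difference of 1. The interval for the dimmer Ap3m1 was -0.76 to 1.07 in male WSP, and that for Itsn1 -1.85 to -0.06, with an adjusted p of 0.911 in limma.

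**Figure D3:**
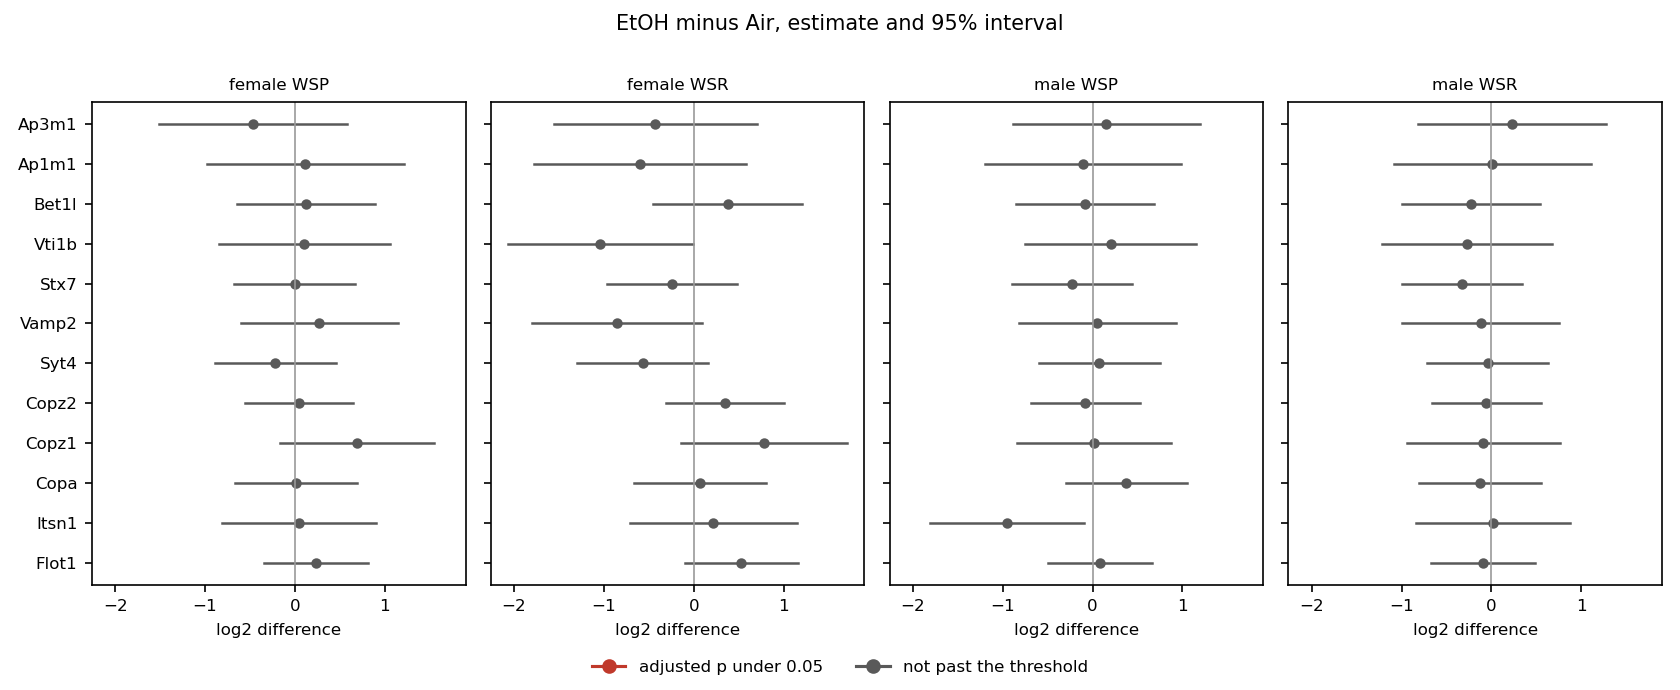
EtOH minus Air for the 12 tested members in the 4 groups of F/M code and line, as log2 difference (x axes) with 95% intervals from the fit to 31 arrays. No member is past the threshold, and the estimates lie between -1.04 (Vti1b, female WSR) and 0.79 (Copz1, female WSR).

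Averaged over the 4 groups, the EtOH difference was largest in size for Copz1 (0.35 ± 0.21), followed by Vti1b (-0.25 ± 0.24). Flot1 (0.19 ± 0.14), Stx7 (-0.20 ± 0.17) and Syt4 (-0.19 ± 0.17) had the next lowest p after Copz1. No member passed (0% of all probes did), and 0 of 12 members and 5.42% of all probes had an unadjusted p under 0.05. The EtOH response also passed in no member when compared between lines or between F/M codes, again with 0% of all probes called in limma and 0 members at an unadjusted p under 0.05 (5.09% and 3.95% of all probes). For the response of WSP minus that of WSR, the lowest p belonged to Vti1b (0.81 ± 0.47), Vamp2 (0.65 ± 0.44), Itsn1 (-0.57 ± 0.43) and Syt4 (0.23 ± 0.34). For the response of females minus that of males, it belonged to Copz1 (0.77 ± 0.43), Itsn1 (0.60 ± 0.43), Flot1 (0.39 ± 0.29) and Ap3m1 (-0.64 ± 0.52).

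The second question was whether the lines differ. In females, Flot1 was 1.84-fold higher in WSP than in WSR. It had 8.60, 8.78, 8.36 and 8.79 on female WSP EtOH arrays and 8.49, 8.61, 7.72 and 8.77 on female WSP Air arrays, against 8.95, 7.09 and 7.66 on female WSR EtOH arrays and 7.60, 7.44, 6.97 and 7.48 on female WSR Air arrays. All 8 WSP values lay above the WSR mean of 7.64, and only WSR EtOH 1-1, at 8.95, lay among or above them. The difference was 0.88 ± 0.21 (adjusted p = 0.0127 in limma), and 1 of 12 members passed where 4.67% of all probes did (3.9% as higher). At an unadjusted p under 0.05 there were 5 of 12 members and 20.5% of all probes. Without array 1-2 of female WSR EtOH the Flot1 difference was 0.67 (limma, adjusted p = 0.0611), and with cyclic loess in place of quantile normalisation it was 0.32 and did not pass.

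The Golgi SNARE Bet1l (0.89 ± 0.28), the COPI subunit Copz1 (0.88 ± 0.31) and Stx7 (0.68 ± 0.24) had estimates in the same direction that did not pass (limma, adjusted p = 0.0589, 0.0925 and 0.0952). Stx7 was above background on 6 of 8 female WSP and 0 of 7 female WSR arrays, and no fold is given since its bound is under 1. The median over the 12 members was 0.43, beside 0.09 over all probes. All female WSR arrays were high in background, and so were the pool 1 arrays of female WSP. In a fit that also held the background class, the Flot1 difference was 0.65 (adjusted p = 0.147 in limma) and no member passed, where 2.38% of all probes did. The astrocyte marker Glul was higher in female WSP (0.74). The other astrocyte marker, Aldoc, had means of 6.36 (EtOH) and 5.99 (Air) in female WSP and 6.18 and 6.17 in female WSR. The mean log2 level of the 10 marker probes was 6.95 to 7.69 on female WSP and 6.76 to 7.62 on female WSR arrays. The part of cell type and of background in the Flot1 difference was not tested.

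In males, where background was alike in both lines, Flot1 did not show this: its difference was -0.01, with a 95% interval of -0.21 to 0.19 in the low-background fit. No member passed in males, nor did any probe (0%), and 2 of 12 members and 5.76% of all probes had an unadjusted p under 0.05. Copa had the lowest p. It had 7.03, 7.39, 7.10 and 6.95 in male WSP EtOH and 6.47, 6.27, 7.12 and 7.10 in male WSP Air, against 5.80, 6.04, 6.38 and 6.53 in male WSR EtOH and 6.04, 6.45, 6.06 and 6.69 in male WSR Air. The EtOH groups of the lines did not overlap, while the Air groups did. The WSP minus WSR difference was 0.68 ± 0.23, or 1.60-fold (adjusted p = 0.637 in limma). In the low-background fit it was 0.68 ± 0.16 with an adjusted p of 0.0863.

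Vamp2 ran the other way in males, with 4.50 to 5.79 on male WSP and 5.38 to 6.23 on male WSR arrays (-0.70 ± 0.30, limma adjusted p = 0.783). It was above background on 1 of 8 male WSP and 4 of 8 male WSR arrays, so much of this lies near background. Itsn1 (-0.37 ± 0.30) and Copz1 (-0.19 ± 0.30) followed.

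Averaged over F/M code and treatment, the line difference was 0.56 ± 0.17 for Copa, 0.43 ± 0.14 for Flot1, -0.52 ± 0.22 for Vamp2 and 0.43 ± 0.19 for Bet1l. None passed (limma, adjusted p = 0.0978, 0.148, 0.272 and 0.315), while 4 of 12 members and 13.9% of all probes had an unadjusted p under 0.05, and 0.0517% of all probes passed. The difference between the female and the male line difference was itself tested: it was 0.88 ± 0.29 for Flot1, 1.07 ± 0.43 for Copz1, 0.93 ± 0.38 for Bet1l and 0.78 ± 0.33 for Stx7. None passed (limma, adjusted p = 0.162, 0.254, 0.267 and 0.281), where 0.723% of all probes did and 4 of 12 members had an unadjusted p under 0.05, beside 14.3% of all probes.

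**Figure D4:**
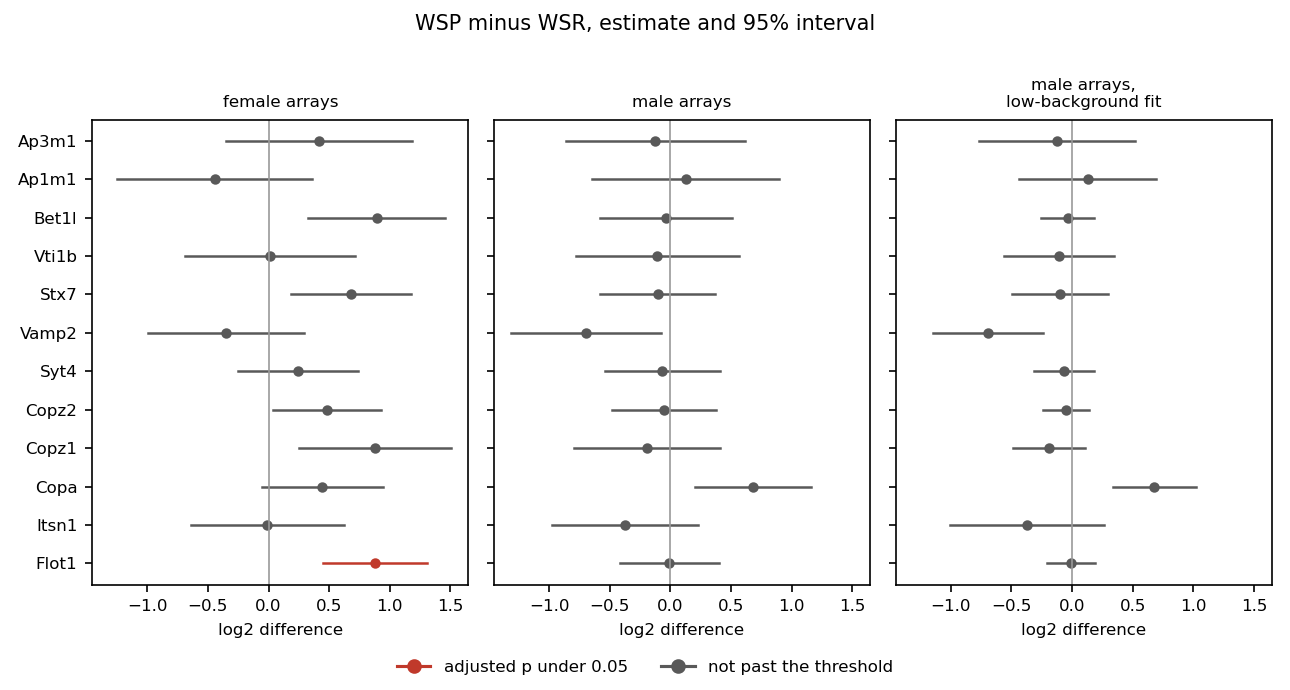
WSP minus WSR for the 12 tested members on female arrays, on male arrays and on male arrays in the fit to low-background arrays, as log2 difference (x axes) with 95% intervals. Flot1 is past the threshold in females (0.88) and at -0.01 in males, and Copa is at 0.68 in males without passing.

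The third comparison, between F/M codes, gave most of the calls, and in WSR it coincides with background, since every female WSR array was high and every male array low. In WSR, 6 of 12 members were lower in females and none higher, where 22.1% of all probes passed (17.4% lower, 4.7% higher). Bet1l had 8.15, 6.62 and 6.09 on female EtOH arrays and 6.99, 6.09, 6.25 and 6.96 on female Air arrays, against 8.0, 8.13, 8.16 and 7.74 on male EtOH arrays and 8.37, 8.32, 8.16 and 8.10 on male Air arrays. Apart from the female value of 8.15, the codes did not overlap, and the difference was -1.36 ± 0.28, or 2.57-fold lower (adjusted p = 0.000814 in limma). Flot1 was 1.90-fold lower (-0.92 ± 0.21), Copz1 2.03-fold lower (-1.02 ± 0.31) and Copz2 1.52-fold lower (-0.61 ± 0.22) in female WSR (limma, adjusted p = 0.00202, 0.0162 and 0.0439).

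Itsn1 (-1.47 ± 0.31) and Stx7 (-0.68 ± 0.24) were the other members lower in female WSR (limma, adjusted p = 0.00108 and 0.0415). Both were above background on 0 of 7 female WSR arrays. Itsn1 also passed the filter on dim probes only through male arrays, so its call is no independent support. Itsn1 had 5.30, 5.36 and 5.55 on female EtOH arrays and 4.76, 5.20, 4.84 and 5.94 on female Air arrays, against male WSR values of 5.93 to 7.38, and was at least 1.05-fold lower. The Stx7 bound is under 1, so no fold is given, and without the filter on dim probes its call was lost. Bet1l was above background on 3 of 7, Flot1 on 6 and Copz1 on 1 of the female WSR arrays. The calls of Stx7, Copz2 and Copz1 were lost when single arrays were left out: 11 different arrays for Stx7 (-0.82 to -0.58, adjusted p up to 0.104), 17 for Copz2 (-0.82 to -0.37, up to 0.197) and female WSR EtOH 2-2 for Copz1 (adjusted p = 0.0512). Without female WSR EtOH 2-2, 3 members passed in place of 6. With cyclic loess, Itsn1 alone passed (-1.47), and Bet1l was at -0.19, Flot1 at -0.09, Copz1 at -0.05, Copz2 at -0.07 and Stx7 at -0.64. When the fit held the background class, no member passed, nor did any probe (0%), and standard errors were wider. Itsn1 was then at -1.06 ± 0.52, Copz1 at -1.04 ± 0.52, Stx7 at -1.11 ± 0.39, Flot1 at -0.48 ± 0.33, Copz2 at -0.23 ± 0.35 and Bet1l at -0.19 ± 0.38. Of the markers, Glul (-0.88) and Enpp2 (-0.70) were also lower in female WSR. The other astrocyte marker, Aldoc, ran the other way, with means of 6.18 (EtOH) and 6.17 (Air) in female and 5.98 and 5.72 in male WSR.

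In WSP, 2 of 12 members passed, both lower in females, where 4.57% of all probes passed (3.69% lower, 0.878% higher). Itsn1 had 5.58, 4.46, 5.29 and 5.89 on female EtOH arrays and 5.07, 5.49, 4.37 and 6.12 on female Air arrays, against 6.25, 6.62, 5.16 and 5.64 on male EtOH arrays and 6.56, 7.87, 6.67 and 6.37 on male Air arrays. All 8 female values lay below the male mean of 6.39, and the male EtOH range overlapped them. The difference was -1.11 ± 0.30 on measured values (adjusted p = 0.028 in limma), with the probe above background on 3 of 8 female and 6 of 8 male WSP arrays. Here too, Itsn1 passed the filter on dim probes only through male arrays.

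Copa had 5.66, 5.74, 7.34 and 5.60 on female EtOH arrays and 5.48, 5.93, 6.65 and 6.23 on female Air arrays in WSP, against the male WSP values of 6.27 to 7.39 given above. The 2 female values above 6.27 came from the pool 1 arrays of selection replicate 2. The difference was -0.85 ± 0.23, or 1.80-fold (adjusted p = 0.0349 in limma), with the probe above background on 6 of 8 female and 8 of 8 male WSP arrays. Vamp2 (0.82 ± 0.30) and Bet1l (-0.43 ± 0.27) had the next lowest p and did not pass (limma, adjusted p = 0.118 and 0.353). Leaving out 1 array at a time kept Itsn1 between -1.25 and -0.94 and Copa between -1.06 and -0.75, but took the adjusted p to as much as 0.0877 and 0.0872, with the call lost for 6 and 9 of the 31 arrays. With cyclic loess, Itsn1 passed (-1.23) and Copa did not (-0.73).

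Female WSP pool 2 arrays allow the F/M comparison at low background. Against the 8 male WSP arrays, Copa on these 4 arrays was at 5.74, 5.60, 5.93 and 6.23, all under the male range of 6.27 to 7.39. The difference was -1.05 ± 0.20 (95% interval -1.47 to -0.63, adjusted p = 0.013 in limma). It was the only member to pass this contrast in the low-background fit, where 2.71% of all probes did. The Copa signal on these 4 arrays was 1.07, 1.04, 1.12 and 1.42 times background. On male WSP arrays it was 1.24 to 1.93 times background, so the values lie near background. How many of all probes showed no overlap was not counted, here or in the male line comparison. Itsn1 on these arrays was at 4.46, 5.89, 5.49 and 6.12, and its difference, -0.90 ± 0.37, did not pass (adjusted p = 0.187 in limma).

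Bet1l on the female WSP pool 2 arrays was at 8.26, 8.27, 8.12 and 8.30, within or close to the male range, and its difference was 0.15 ± 0.13. On the pool 1 arrays it was at 7.51, 6.81, 7.24 and 6.71, under all male values. Flot1 (0.18 ± 0.12), Copz2 (0.12 ± 0.11) and Copz1 (0.04 ± 0.17) likewise did not differ past the threshold at low background, with 95% intervals of -0.06 to 0.43, -0.11 to 0.36 and -0.32 to 0.40. All female values of Bet1l under the male range were on high-background arrays, and female WSR holds no low-background array on which to look again.

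**Figure D5:**
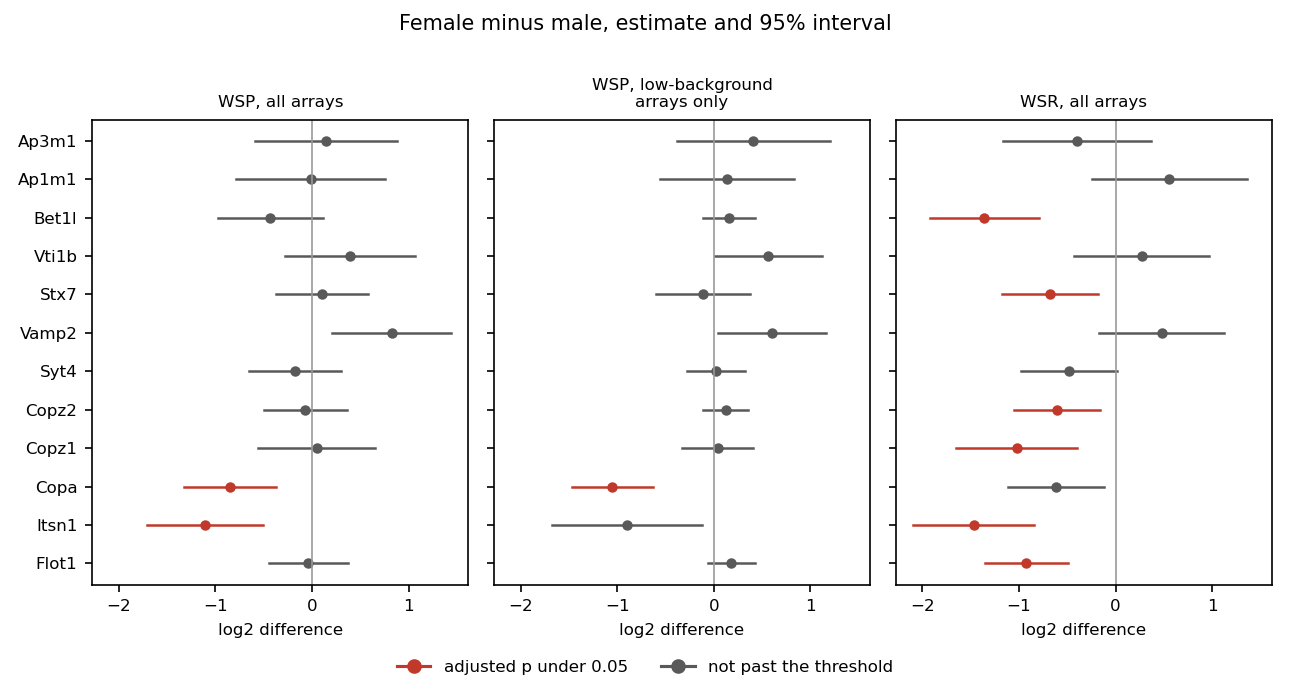
Female minus male for the 12 tested members in WSP on all arrays, in WSP on low-background arrays and in WSR on all arrays, as log2 difference (x axes) with 95% intervals. At low background Copa is past the threshold (-1.05) and Bet1l lies at 0.15, whereas in WSR, where all female arrays are high in background, Bet1l lies at -1.36.

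Averaged over line and treatment, 5 of 12 members passed, 4 of them lower in females, where 26.4% of all probes did (19.5% lower, 6.84% higher). On measured values Itsn1 (-1.29 ± 0.21), Bet1l (-0.90 ± 0.19, 1.86-fold), Copa (-0.73 ± 0.17) and Flot1 (-0.48 ± 0.14, 1.40-fold) were lower in females, with limma adjusted p = 8.41e-05, 0.000977, 0.00187 and 0.0138. Itsn1 and Copa are given no fold here, since both were above background on 0 of 7 female WSR arrays. Vamp2 was higher in females on measured values (0.65 ± 0.22, limma adjusted p = 0.0266), with a call that was lost without female WSR EtOH 1-2 (0.50, adjusted p = 0.0711). Vamp2 was above background on 8 of 15 female and 5 of 16 male arrays. Itsn1 and Vamp2 each passed the filter on dim probes only through the F/M code in which it was higher, so these calls are no independent support. Itsn1 had a lowest, median and highest value of 4.37, 5.30 and 6.12 on 15 female arrays, against 5.16, 6.57 and 7.87 on 16 male arrays. Copa had 5.26, 5.73 and 7.34 on female arrays, against 5.80, 6.50 and 7.39 on male arrays. When the fit held the background class too, the estimates were -0.98 for Itsn1, -1.03 for Copa, -0.02 for Bet1l, -0.15 for Flot1 and 0.31 for Vamp2. None passed, nor did any probe (0%). With cyclic loess Itsn1 passed (-1.35), while Copa (-0.44), Bet1l (-0.01) and Vamp2 (0.53) did not, and Flot1 turned to 0.077. Beside these, 4 of 10 marker probes were lower in females (Glul -0.56, Enpp2 -0.54, Syn1 -0.59 and Thy1 -0.57), and the mean log2 level of the 10 markers was 6.76 to 7.69 on female and 7.21 to 7.73 on male arrays. The astrocyte marker Aldoc, unlike Glul, was not lower, with group means of 5.99 to 6.36 in females and 5.53 to 6.04 in males. The part of cell makeup and of background in the differences over both lines was not tested.

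Other genes of vesicle traffic, found by title outside the keyword rule, comprised 16 probes, of which 15 were tested (Rab GTPases, Arf GTPases, annexins, synapsin 1 (Syn1), Lamp1, Scamp4 and subunits of the vesicular proton pump). None passed for EtOH in any group, nor for the mean response or its difference between lines or codes (limma, 0 of 15 in each), as for the members. Of all probes, 0.155% passed in female WSR and 0% in each of the others. At an unadjusted p under 0.05 there were 1 of 15 in female WSP, 2 in female WSR, 0 in male WSP, 1 in male WSR, 0 in the mean, 2 for the difference between lines and 0 for that between codes. Of all probes, 3.82%, 13.8%, 0.93%, 0.878%, 5.42%, 5.09% and 3.95% did so, in that order. In the female line contrast 1 of 15 passed, where 4.67% of all probes did. It was Arf4, a Golgi Arf GTPase, which was lower in WSP (-0.98 ± 0.27, limma adjusted p = 0.0291). Arf4 was above background on 2 of 8 female WSP and 2 of 7 female WSR arrays. No related gene passed between lines in males, nor did any probe (0%), and 0 of 15 had an unadjusted p under 0.05 there, beside 5.76% of all probes. Between F/M codes, 0 of 15 passed in WSP (2 at an unadjusted p under 0.05) and 3 in WSR, where 4.57% and 22.1% of all probes did. In WSR, Arf4 was higher in females (1.44 ± 0.27), and the annexin Anxa11 (-1.47 ± 0.28) and the lysosomal membrane protein Lamp1 (-0.77 ± 0.23) were lower (limma, adjusted p = 0.000368, 0.000449 and 0.0139). Arf4 was above background on 2 of 7 female and 0 of 8 male WSR arrays and was at least 1.66-fold higher. Anxa11 was above background on 0 of 7 female and 8 of 8 male WSR arrays, which bounds it at no less than 1.05-fold lower. These 3 genes and Syn1, which is also one of the neuronal markers, passed in the mean over lines, which makes 4 of 15, beside 26.4% of all probes. Arf4 was the related gene that was higher in females there, as Vamp2 was among the members. The male group means of Arf4 (4.82 to 5.51) all lay under the highest mean among untested probes, 5.53. Arf4 thus passed the filter on dim probes only through female arrays. These were mainly of WSR, with group means of 6.49 and 6.58, against 5.49 and 5.63 in female WSP. Its calls between codes and between lines are therefore no independent support. Syn1 passed the filter narrowly through male arrays only, as its female mean lay just under 5.53, so its call is no independent support either.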

How the data were processed

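Prefrontal cortex RNA was measured on 32 cDNA arrays, and 31 were used here. The authors deposited 1 spot intensity per cDNA and 1 background reading per array on a linear scale, per the file headers. The quantification software is not given in the sources used here. The intensity was used as if no background had been subtracted before deposit. The deposited series table holds a score, found here to be 8 + 2 times the z-score of log2 intensity within an array, and whether a spot is blank matched whether its signal was at or below background for at least 99.4% of spots on each array. It served as an alternative.

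Background was corrected with normexp in limma (version 3.58.1, R 4.3.3), with an offset of 50, or of 0.1 of an array's median signal where that median was under 500. After removal of the 192 control spots, quantile normalisation and log2, probes with a mean over 31 arrays above the 25th percentile were tested. Each was fitted with 1 mean per group (23 residual degrees of freedom), and 14 contrasts were drawn. Variances were moderated by empirical Bayes, and p-values were adjusted by Benjamini-Hochberg within a contrast, over 3872 probes. The number of arrays limits the precision, and p-values measure the spread between arrays within groups, each array a pool of 2 animals. For each probe, 1 estimate of this spread was shared by all groups, though female WSR arrays varied more than male arrays. The SE of Bet1l for EtOH in male WSR was 0.37, against 0.15 in the low-background fit. Thus p-values can be too high for male groups and too low for female WSR. A group holds both selection replicates, so this spread includes their difference. It also includes that of ethanol dose in WSP EtOH and that of background class in female WSP. Per contrast, the text names each member past the threshold or, where fewer than 4 passed, the 4 with the smallest p. A probe's level was not set against another's, so the planned ranking of members by brightness was replaced by counts of arrays above background. Where 1 side had no array above background, a lower bound replaces the fold. It sets the brighter side's mean against a floor on each array of the dimmer side, which is its dimmest detected probe or the member itself, if brighter. The bound takes no account of the spread between arrays, so it is no minimum change where a difference did not pass. Members and lists were chosen with earlier results of these data known. Of 24 titles found for the related traffic list, 8 were dropped on the title alone. Symbols were assigned from the design's probe titles, which can be old. The test was checked on simulated data, and low background means a reading under 75. A result for 1 marker is not reported here. Figures were drawn with matplotlib.

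Alternatives were other background corrections, normalisations and filters, array weights, blocks for the selection replicate and for the replicate number, the background class as a term, low-background arrays alone, the groups of a contrast alone, the excluded array, the deposited scores, and leaving out each array.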

Additional observations from a re-analysis of the deposited data

Results flagged for a closer look

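In groups of 4 arrays, the highest or lowest value was marked where its gap to the next value, as a share of the group's range, exceeded Dixon's 95% critical value. This held for 8 of 119 combinations of member and group, and chance marks about 1 in 20. Array 2-1 of female WSP EtOH, on which 15.8% of probes were above background, gave 3 of them, with the lowest Copz2 (8.12) and Vti1b (6.13) and the highest Copa (7.34) of its group. Array 2-1 of female WSP Air gave the lowest Copz2 (7.92). Array 1-1 of female WSP Air gave the highest Cav2 (7.99), and array 1-2 of female WSR Air the highest Syt4 (8.90). In male WSP Air, array 1-1 gave the highest Bet1l (8.29) and array 2-2 the lowest Ap1b1 (4.47), which was below background there. All 8 values are log2 normalised intensities.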

How the results depend on the processing

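Counts of members past the threshold (limma, adjusted p under 0.05) were recomputed under 14 alternatives. The 7 EtOH counts stayed at 0 under every one that could be run, and under leaving out each array. Between lines in females, 1 member passed, against 0 with cyclic loess, with the background class as a term, with only the groups of the contrast and with the deposited scores, 2 with no filter, a filter at the 50th percentile, array weights, the excluded array or the replicate block, and 3 with median scaling. Averaged over F/M code, 0 passed between lines, against 3 with array weights, and for the difference of the line differences 0, against 2 with array weights and 1 with the scores. Between F/M codes, 2 members passed in WSP, against 1 with cyclic loess, with only the groups of the contrast and on low-background arrays, and 0 with the background class and the scores. In WSR 6 passed, against 1 with cyclic loess, 0 with the background class and 2 with the scores. Over both lines 5 members passed, against 2 with cyclic loess, 8 with median scaling, 0 with the background class and 2 with the scores. Of the 5, only Itsn1 remained with cyclic loess, and it passed the filter on dim probes only through male arrays. With the background class, 2.38% of all probes passed between lines in females, 0.31% between F/M codes in WSP, and 0% in WSR and over both lines. Shares for most other alternatives are not given, so those counts do not set the members apart from all probes. Cyclic loess moved the median of all probes by 0.155 and median scaling by -0.136 for females minus males in WSR. With cyclic loess that contrast was -0.19 for Bet1l and -0.09 for Flot1.
Leaving out each array gave 0 to 3 members between lines in females, 0 in males, 0 to 1 averaged and 0 to 1 for the difference of the differences, and 0 to 2 in WSP, 3 to 7 in WSR and 5 to 7 over both lines between F/M codes.
Some estimates that did not pass turned sign. For EtOH in female WSP, Copz1 was -0.069 on low-background arrays, Ap3m1 was 0.059 with array weights, 0.22 on low-background arrays and 0.019 with the scores, Flot1 was -0.45 with median scaling and Syt4 was 0.0032 on low-background arrays. The Syt4 line difference of the EtOH response was -0.32 with median scaling. Bet1l, for females minus males in WSP, was 0.18 with cyclic loess, 0.0087 with array weights, 0.15 with the background class and on low-background arrays, and 0.095 with the scores. Flot1, which passed over both lines, was 0.077 with cyclic loess. Leaving out 1 array took Stx7 for EtOH in male WSP between -0.43 and 0.014, Vti1b there between -0.0014 and 0.40, and Ap3m1 in male WSR between -0.064 and 0.42. The cause of these changes was not tested.
The residuals of same-numbered EtOH and Air arrays had r of -0.17 to 0.20 and did not all exceed 0.1, so the arrays were not treated as paired. In female WSP all 4 were positive (0.04 to 0.20), and there the pool number coincides with the background class. The main limits are that several members were below background on high-background female arrays and that the female WSR arrays share 1 background class.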

Other observations

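Caveolin 2 (Cav2), a member too dim for the test, showed a pattern on male arrays that was picked after its values were seen. It was above background on 4 of 16 male arrays, and these were the 4 EtOH arrays of selection replicate 2, with 6.26 and 6.78 in WSP and 5.83 and 5.63 in WSR. The EtOH arrays of selection replicate 1 had 5.40 and 5.32 in WSP and 4.40 and 4.16 in WSR, and the Air arrays of both replicates ran from 4.20 to 5.34. Female arrays did not share this order, with 4.66 and 6.61 on EtOH arrays of WSP selection replicate 2 against 5.70 and 5.37 on its Air arrays. No test was run.

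The AP-1 subunit Ap1m1 was also picked after its values were seen. On the low-background female WSP arrays it had 6.54 and 7.52 with EtOH, both above background, against 5.11 and 4.91 with Air, both below it. On the high-background arrays of the same groups it had 4.97 and 4.67 with EtOH, both below background, against 6.69 and 6.53 with Air, both above it. The difference on the low-background arrays was 2.02 ± 0.54 (SE), which did not pass (adjusted p = 0.207 in limma).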
